A study of Mus musculus with 4 samples.

Results

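The 8 genes described here are the protein-coding genes of the signal recognition particle (SRP) in mouse embryonic stem cells (ESCs): Srp9, Srp14, Srp19, Srp68, Srp72 and the Srp54 copies Srp54a, Srp54b and Srp54c. They were picked by gene symbol from the 50559 genes in the count table, and all 8 had enough counts to be fitted. They were chosen from their counts in the same siCnot1 and siNT libraries that are described below, including the count of Srp54b in 1 siNT library, so every value of these genes in that comparison is a description and no test is given for it. The cells were ESCs of the line E14, grown on gelatin with leukemia inhibitory factor and transfected either with an siRNA that targets Cnot1 (siCnot1) or with a non-targeting control siRNA (siNT), both at 150 nM for 48 h. Each group had 2 biological replicates, giving 4 libraries of poly(A)+ RNA, and the data are whole read counts for each gene. CNOT1 is the large subunit on which the other parts of the CCR4-NOT deadenylase assemble, and the comparison asks how the transcriptome of ESCs differs when Cnot1 is knocked down. The methods describe ESCs that carry a tdTomato reporter driven by the MERVL promoter, whereas the labels name only the line, and the same cells served as control and as knockdown.

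The SRP is a ribonucleoprotein built on the 7SL RNA. It meets ribosomes as the signal sequence of a secreted or membrane protein emerges, slows translation, and delivers the ribosome to the SRP receptor in the membrane of the endoplasmic reticulum, where the chain passes into the Sec61 channel. SRP9 and SRP14 form the heterodimer of the Alu domain, which slows elongation, SRP19 binds the S domain of 7SL and prepares it for SRP54, SRP68 and SRP72 form a second heterodimer on the S domain, and SRP54 is the GTPase that holds the signal sequence and docks to the receptor.

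The Srp54 copies lay side by side on the plus strand of chromosome 12, in the table's positions at chr12:55127261-55162152 for Srp54a, chr12:55201889-55235998 for Srp54b and chr12:55276896-55326120 for Srp54c, which were taken to be of the build GRCm39. In the GENCODE M21 transcripts of the build GRCm38, each copy had a coding sequence of 1512 bases, or 504 codons, spread over a transcript of 16 exons. The coding sequences of Srp54a and Srp54b were identical at every base. Srp54c differed from both at 6 bases, written with the Srp54a base first, the position counted from 1 at the A of the start codon, and the Srp54c base last, as T501C, T945C, G946A, T965G, A1197T and G1249A. Of these, 4 changed the encoded residue. The longest run of coding bases identical in all 3 copies was 500 bases. The stretches that hold 5 of the 6 differences are shown because they are where a coding read can tell Srp54c from the other copies, and where none can tell Srp54a from Srp54b; capitals mark the bases that differ. The first stretch, coding bases 926 to 985, runs from exon 11 into exon 12, at chr12:55102507-55105202 in Srp54a, chr12:55177567-55180262 in Srp54b and chr12:55252811-55255550 in Srp54c (GRCm38, plus strand, the intron between the exons not shown).
Srp54a and Srp54b, bases 926 to 985: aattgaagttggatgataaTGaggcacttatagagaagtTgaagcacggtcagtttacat
Srp54c, bases 926 to 985: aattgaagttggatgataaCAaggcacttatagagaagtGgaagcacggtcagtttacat
The second stretch, coding bases 1194 to 1253, lies within exon 14, at chr12:55108539-55108598 in Srp54a, chr12:55183599-55183658 in Srp54b and chr12:55257462-55257521 in Srp54c.
Srp54a and Srp54b, bases 1194 to 1253: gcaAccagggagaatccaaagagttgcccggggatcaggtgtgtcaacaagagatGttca
Srp54c, bases 1194 to 1253: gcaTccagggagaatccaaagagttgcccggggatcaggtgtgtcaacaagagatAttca

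Over whole transcripts, the copies differed in how much sequence was their own. Reads were 150 bases long, so each transcript was cut into every possible stretch of 150 bases and each stretch was looked up in the transcripts of the other copies. Srp54b shared 3389 of its 3497 stretches (96.91%) and had 108 of its own, all of them after the coding sequence. Srp54c shared 2971 of 3493 (85.06%), and its 522 own stretches all overlapped the coding sequence. Srp54a shared the least, 3064 of 4349 (70.45%). Its 1285 own stretches lay mostly outside the coding sequence, 354 before it, 858 after it and 73 across its edges. None of the other 5 SRP genes shared a stretch with any other gene. Among 16272 tested genes that could be matched by symbol, 84.5% shared none and 3.61% shared at least 50% of their stretches. The Srp54 copies were thus among the few whose counts, summed or split, depend on how reads with several matches were counted. That setting is not given in the sources used here. The reference sequence comes from another mouse strain than the E14 line, and differences between the strains at these genes were not analysed here.

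The 4 libraries held between 32135824 and 32557440 counts on genes, so that 3 counts, taken as the floor, correspond to 0.0921 to 0.0934 counts per 1000000 (CPM). Counts were scaled by edgeR's TMM factors, which were 0.963 to 0.964 for siNT and 1.03 to 1.04 for siCnot1, and levels on this scale are called normalized CPM. Cnot1 itself fell from 949 ± 51.7 (SD, n = 2) to 188 ± 5.14 normalized CPM, a log2 fold change of -2.33 with an adjusted p of 2.37e-18 by edgeR (quasi-likelihood fit, Benjamini-Hochberg over all tested genes). Of 18144 genes tested, 29.7% had an adjusted p under 0.05, 15% higher and 14.7% lower in siCnot1. Groups did not overlap on normalized CPM, so that both siCnot1 libraries lay beyond both siNT libraries, for 32.7% of tested genes on the higher and 31.2% on the lower side. The 6 ESC markers were all well expressed, with a summed level of 4364 to 4470 normalized CPM in siNT and 3760 to 3984 in siCnot1, and 4 of them fell. The 4 markers of 2-cell-like cells summed to 41.9 to 44.1 in siNT and 115 to 120 in siCnot1, and 3 of them rose. Markers of primitive endoderm summed to 9.06 and 6.96 normalized CPM in siNT against 13.2 and 12.1 in siCnot1, and those of fibroblasts to 8.94 and 12.2 against 13.3 and 12.7. Both sums were higher in both siCnot1 libraries, but only 1 marker of each list (Pdgfra and Col1a1) passed. Of the other primitive endoderm markers, Gata6 was at -0.11 on the log2 scale, Gata4 at 0.79 and Sox17 at 0.72. Thy1, which made up most of the fibroblast sum, was level at 0.01. Col1a2 had 0 and 12 counts in siNT against 24 and 3 in siCnot1. Postn was not tested, with 6 and 4 counts against 2 and 0. Markers of trophectoderm summed to 20.99 and 22.9 against 24.0 and 21.2, and none of the 3 tested passed. The part of these shifts in the values of the SRP genes was not tested, and in bulk RNA fewer cells of a type and less RNA per cell cannot be told apart. With 2 libraries per group, p-values rest on the spread between these 4 libraries, with each gene's spread drawn by the fit towards that of other genes. A two-sided exact permutation test of a single gene could not go below 0.33.

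The fitted log2 fold changes of the SRP genes ranged from -3.48 for Srp54b to 0.01 for Srp72. That of Srp54b was 0.21 without siNT replicate 2. On normalized CPM both siCnot1 libraries lay below both siNT libraries for 5 of the 8 genes, Srp14, Srp19, Srp68, Srp54a and Srp54c, beside 31.2% of all tested genes. The groups overlapped for Srp9, Srp72 and Srp54b. The median log2 fold change was -0.22 over the 8 genes and -0.11 over the 5 single-copy genes, against 0.01 over all genes tested. Since the genes were chosen from this comparison, nothing is read from these counts and medians.

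**Figure D1:**
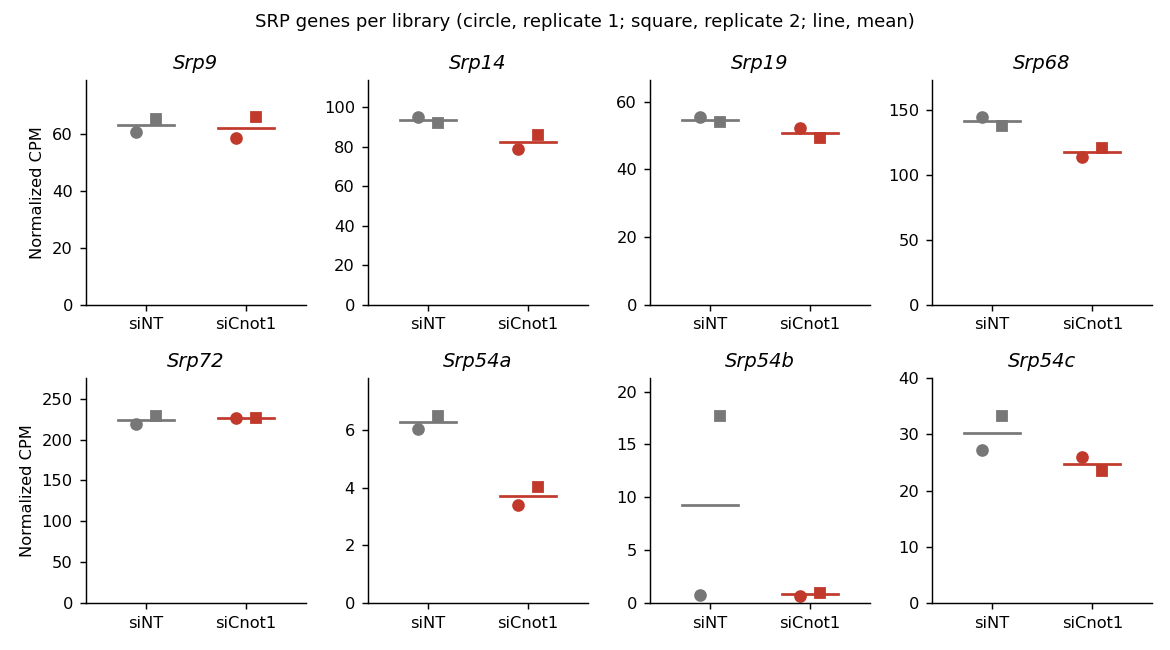
Normalized CPM (linear axis from 0, scaled for each gene) of the 8 SRP genes in each library, siNT in grey and siCnot1 in red, with circles for replicate 1, squares for replicate 2 and a line at the mean of 2 libraries. For Srp54b, siNT replicate 2 lies at 17.7 while the other libraries lie between 0.687 and 0.956.

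Of the Alu-domain pair, Srp9 overlapped between groups on normalized CPM and Srp14 did not. The difference between these genes was not tested. Srp9 (chr1:181952302-181959980) had 60.9 and 65.4 normalized CPM in siNT replicates 1 and 2 against 58.7 and 66.0 under siCnot1. The siCnot1 libraries held both the lowest and the highest value, so the groups overlapped. The log2 fold change was -0.02 (SE 0.0794), with a sign that depended on the scaling, since it was 0.09 when library totals were used in place of TMM. Srp14 (chr2:118306324-118310177), the partner of Srp9, had 94.9 and 92.1 normalized CPM in siNT against 78.8 and 85.9 in siCnot1. Both siCnot1 libraries lay below both siNT libraries, by a mean of 93.5 ± 1.95 (SD, n = 2) against 82.4 ± 5.07. Its log2 fold change was -0.18 (SE 0.0681) and stayed below 0 in all 12 alternative fits, from -0.25 to -0.08. Without scaling the gap was narrow, with 2952 and 2888 counts in siNT against 2639 and 2876 in siCnot1.

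Of the S-domain genes other than Srp54, Srp68 was lower and its partner Srp72 was level. Srp68 (chr11:116135992-116165043) had 145 and 138 normalized CPM in siNT and 114 and 121 in siCnot1, the widest gap between groups among the single-copy genes. The means were 141 ± 4.67 (SD, n = 2) and 118 ± 5.26, a log2 fold change of -0.27 (SE 0.0623) that ranged from -0.32 to -0.16 in the alternatives. Srp72 (chr5:77122548-77147782), which binds 7SL together with Srp68, had 219 and 229 in siNT and 226 and 226 in siCnot1. The siCnot1 libraries lay between the siNT libraries, and the log2 fold change of 0.01 (SE 0.0566) turned to -0.03 without siNT replicate 1. Srp19 (chr18:34464185-34469652) had 55.5 and 54.1 normalized CPM in siNT against 52.3 and 49.4 in siCnot1. Its groups did not overlap on this scale but did as unscaled counts, which were 1726 and 1695 against 1751 and 1652. The log2 fold change was -0.11 (SE 0.0805), and it was -0.0009 when library totals replaced TMM. Library totals also shifted the median log2 fold change over all genes, from 0.01 to 0.12, so relative to that median Srp19 was lower under both scalings.

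Among the Srp54 copies, the summed counts were similar in 3 libraries and high in 1. The sum of Srp54a, Srp54b and Srp54c was 1059 counts in siNT replicate 1, 1805 in siNT replicate 2, 1004 in siCnot1 replicate 1 and 950 in siCnot1 replicate 2. On normalized CPM these were 34.0, 57.6, 30.0 and 28.4, so both siCnot1 libraries were below both siNT libraries, while the siNT libraries differed from each other by more than siNT replicate 1 differed from either siCnot1 library. The mean was 45.8 ± 16.7 (SD, n = 2) in siNT and 29.2 ± 1.12 in siCnot1, and the summed copies had a log2 fold change of -0.65 (SE 0.145). It rested in large part on 1 library: without siNT replicate 2 it was -0.22 (SE 0.0972), and without siNT replicate 1 it was -0.99.

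Srp54b accounted for most of the excess of that library. It had 22 counts in siNT replicate 1, 556 in siNT replicate 2, 23 in siCnot1 replicate 1 and 32 in siCnot1 replicate 2. The library siNT replicate 2 was 18.5-fold above the highest of the other libraries on normalized CPM, and siNT replicate 1 lay between the siCnot1 libraries. The mean in siNT, 9.22 ± 12.04 normalized CPM (SD, n = 2), therefore describes neither siNT library, and the siCnot1 mean was 0.821 ± 0.191. The fitted log2 fold change was -3.48 (SE 0.713) with all libraries, and it turned to 0.21 (SE 0.539) without siNT replicate 2. Srp54b took 30.8% of the summed Srp54 counts in siNT replicate 2 (95% Wilson interval 28.7 to 33.0%). In siNT replicate 1 it took 2.08% (1.38 to 3.13%), in siCnot1 replicate 1 2.29% (1.53 to 3.41%) and in siCnot1 replicate 2 3.37% (2.40 to 4.72%). These intervals cover counting error only.

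**Figure D2:**
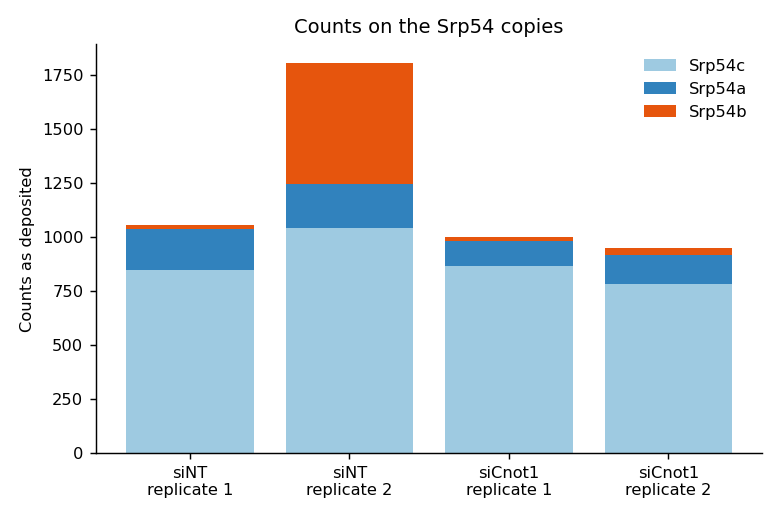
Counts as deposited (linear axis from 0) on Srp54c, Srp54a and Srp54b, stacked for each of the 4 libraries. Srp54b adds 556 counts in siNT replicate 2 and between 22 and 32 in the others.

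The copies other than Srp54b had log2 fold changes below 0 with and without siNT replicate 2, but for Srp54c the value without it was small beside its SE. Srp54a had 188 and 204 counts in siNT and 114 and 135 in siCnot1. On normalized CPM both siCnot1 libraries (3.40 and 4.03) were below both siNT libraries (6.04 and 6.51), with a log2 fold change of -0.75 (SE 0.202) and a range from -0.89 to -0.64 over the alternatives. Srp54c, the copy with the most counts in every library, had 849 and 1045 in siNT and 867 and 783 in siCnot1. On normalized CPM it had 27.3 and 33.3 in siNT against 25.9 and 23.4 in siCnot1. The groups did not overlap on this scale but did as unscaled counts. The gap between them, from 25.9 to 27.3 normalized CPM, was smaller than that between the siNT libraries. The log2 fold change of Srp54c was -0.30 (SE 0.109), and it was -0.15 (SE 0.113) without siNT replicate 2. Srp54a and Srp54c together had 1037 and 1249 counts in siNT and 981 and 918 in siCnot1, a log2 fold change of -0.37 (SE 0.102) that was -0.23 without siNT replicate 2. Srp54c had 4.52 and 5.12 times the counts of Srp54a in siNT against 7.61 and 5.80 times in siCnot1, a higher ratio in both siCnot1 libraries.

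The counts of the copies were also set against the sequence each has to itself. Per unshared 150-base stretch, Srp54b had 0.204 counts in siNT replicate 1, 5.15 in siNT replicate 2, 0.213 in siCnot1 replicate 1 and 0.296 in siCnot1 replicate 2. Srp54c had 1.63, 2.00, 1.66 and 1.5 in the same order, and Srp54a 0.146, 0.159, 0.0887 and 0.105. In siNT replicate 2, then, Srp54b had the highest value of the copies, whereas in the other 3 libraries Srp54c did. The stretches came from GENCODE M21 transcripts of 4498 bases for Srp54a, 3646 for Srp54b and 3642 for Srp54c. The counts came from gene models with listed exon lengths of 4284, 3286 and 5475 bases for the same copies. Sequence found only in those models was not examined, so these values and their order are approximate. Whether the counts of Srp54b came from its 108 own stretches or from shared ones was not tested, since the table gives 1 count per gene.

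**Figure D3:**
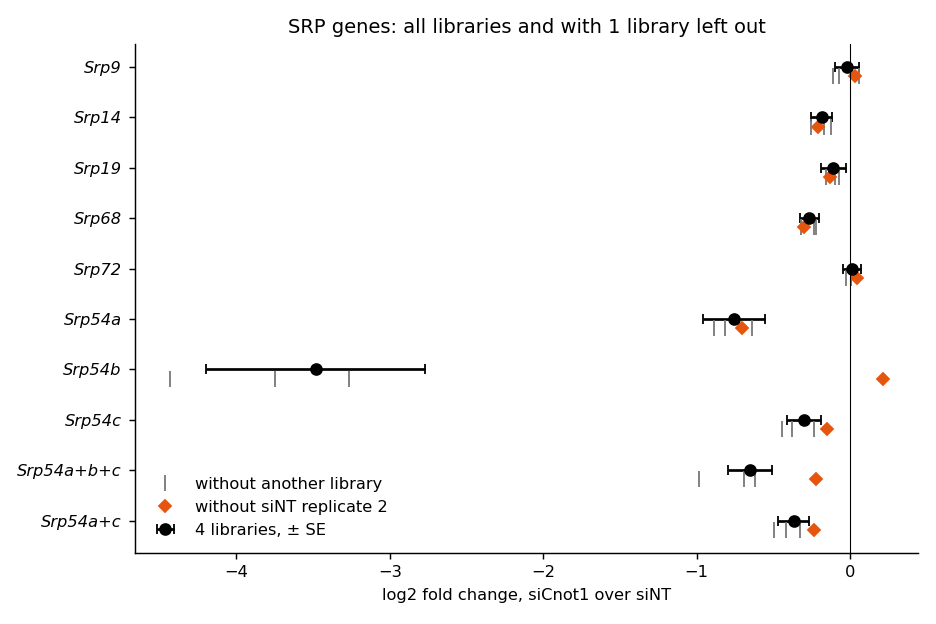
Log2 fold changes of siCnot1 over siNT for the 8 SRP genes, for the 3 Srp54 copies summed and for Srp54a and Srp54c summed, with all 4 libraries (black, ± SE), without siNT replicate 2 (orange diamonds) and without each other library (grey ticks). The orange diamond of Srp54b lies at 0.21 and its black point at -3.48.

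The gap between the siNT libraries is a value Srp54b was chosen on and is given as a description. In log2(normalized CPM + 0.5) it was 3.92 for Srp54b, beside a median of 0.0925 over the 11035 genes with a mean of at least 5 normalized CPM. Srp54b reached that mean only through siNT replicate 2, so genes of a like pattern with lower counts are not in this set. Of the 5 genes in the set with a gap of at least 1, Gm10095 (6.34), Srp54b and Nanp (2.56) passed 2, and Gm8319 and Slc16a3 did not. Gm10095 had 2527 counts in siNT replicate 1 and 16 in siNT replicate 2, and Nanp 263 and 32, so these lay in the opposite direction to Srp54b. Between the siCnot1 libraries, 2 genes had a gap of at least 1, Gm4340 (1.12) and Gm6397 (2.19). The other SRP genes did not share the excess: siNT replicate 2 was above siNT replicate 1 for Srp9, Srp72, Srp54a and Srp54c, most of all for Srp54c at 33.3 against 27.3 normalized CPM, and below it for Srp14, Srp19 and Srp68.

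**Figure D4:**
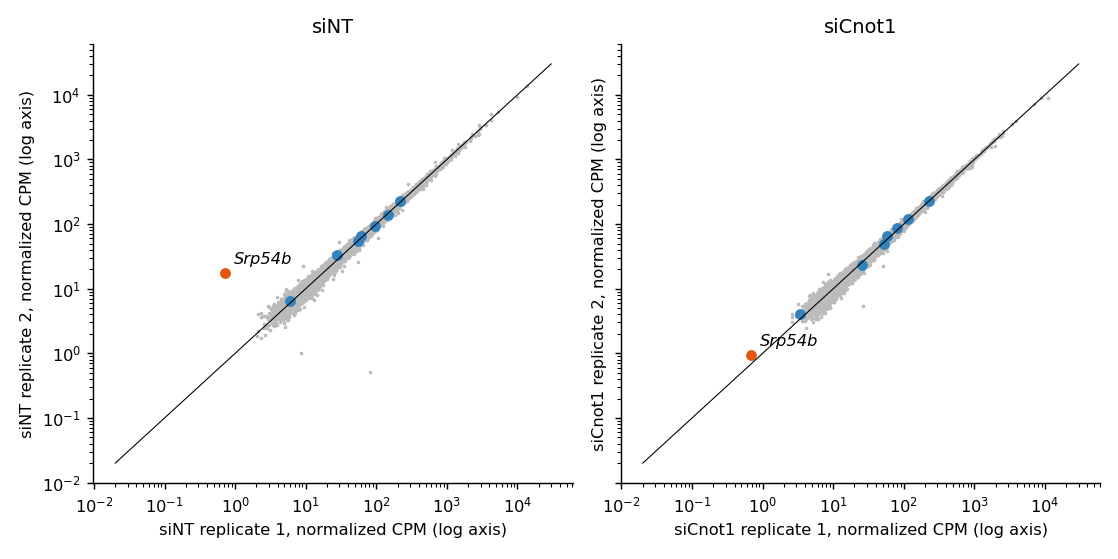
Normalized CPM of replicate 2 against replicate 1 (both log axes) in siNT and in siCnot1, for 11035 genes with a mean of at least 5 normalized CPM (grey), the SRP genes (blue) and Srp54b (orange), with the line of equality. Srp54b lies far above the line in siNT, with a log2 gap of 3.92, and close to it in siCnot1.

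The tested genes of the surrounding region did not show an excess of that size in siNT replicate 2. Of 16 other genes within 200000 bases of a Srp54 copy, none overlapped a copy, 5 were tested and 11 had at most 18 counts in any library. In siNT replicates 1 and 2, 2700097O09Rik, which begins 5 bases from the start of Srp54a, had 1108 and 1077 counts, and Ppp2r3c, the next gene after Srp54c, had 970 and 860. The counts of Baz1a were 3210 and 3600, those of Prorp 964 and 927 and those of Psma6 7649 and 7958. The genes between the copies, Fam177a, Gm2436, Fam177a2 and Gm2446, had at most 10 counts in any library. Fam177a, Gm2436 and Gm2446 shared 98.44%, 100% and 99.84% of their 150-base stretches with other genes, so their counts also depend on how reads with several matches were counted. In the comparison of siCnot1 with siNT, Baz1a, a chromatin remodelling subunit, fell by 0.46 on the log2 scale (edgeR adjusted p = 2.55e-05). Psma6, a proteasome subunit, fell by 0.23 (edgeR adjusted p = 0.00824), a call that was lost with library totals in place of TMM (-0.13) and without the filter on low counts. It held in 1 of the 4 fits without 1 library, and its value was -0.13 without siCnot1 replicate 1 and -0.35 without siCnot1 replicate 2. The other 3 tested neighbours did not pass, with log2 values of 0.21 for 2700097O09Rik, which passed under library totals at 0.32, 0.12 for Prorp and -0.09 for Ppp2r3c, the last of which was 0.02 under library totals.

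Among genes with a mean of at least 5 normalized CPM, none followed Srp54b closely across the 4 libraries. Srp54b reached that mean only through siNT replicate 2, so genes of a like pattern with lower counts were left out of the search. By Euclidean distance between log2 normalized CPM centred on each gene's mean, the nearest of 11034 genes were Gm8319 at 2.44, Xlr5b at 2.58 and Gm41031 at 2.62. Gm8319 had 288 and 706 counts in siNT against 409 and 357 in siCnot1, and it too was highest in siNT replicate 2, but by far less. The nearest genes to the summed Srp54 copies were closer, Gm6430 at 0.204, Synpo at 0.237 and Meioc at 0.248. Gm6430 had 338 and 488 counts in siNT and 311 and 298 in siCnot1.

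Levels were compared between SRP genes per length, as TPM, length-corrected counts scaled to 1000000 per library, computed from the counts and the listed exon lengths. Within siNT, Srp14 was highest at 289 ± 1.88 (SD, n = 2), followed by Srp72 at 152 ± 7.31, Srp19 at 151 ± 0.574, Srp68 at 137 ± 2.56 and Srp9 at 111 ± 7.22. Srp72 and Srp19 did not differ beyond their spread, since 147 and 157 TPM in the former enclosed 151 and 150 in the latter, and the other neighbours in this order did not overlap. All 5 lay between the percentiles 90.8 and 96.9 of tested genes. The 3 Srp54 copies summed to 16.0 and 32.1 TPM in siNT and 15.8 and 14.9 in siCnot1, below every single-copy gene in every library. Each copy shared 70.45 to 96.91% of its 150-base stretches with the other copies, and how such reads were counted is not given. If they were left out, this sum is too low, which was not tested. In siCnot1 the order was Srp14 at 285 ± 13.8, Srp72 at 171 ± 2.205, Srp19 at 156 ± 8.33, Srp68 at 127 ± 4.04 and Srp9 at 123 ± 8.56, and the libraries of Srp68 and Srp9 overlapped. TPM is not scaled by TMM, so these levels give the order of genes within a library and not the change between groups. The order depended on the length used. With the same counts divided by coding length, Srp9 came to 287 per 1000000 in siNT, next to Srp14 at 332. Srp19 followed at 149, Srp72 at 131 and Srp68 at 88.4. The counts include reads outside the coding sequence, so these values are not levels per counted length. For Srp9 the coding length was 258 bases and the exon length 1388.

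The genes that act with the SRP were listed by their known roles, with earlier results of these data known, and were tested. Of 52 listed, 50 were tested, and 11 rose, 7 fell and 32 did not pass, with a median log2 fold change of 0.00, beside 15% higher and 14.7% lower among all genes. Of the 18 that passed, 7 also passed under each of the other 8 scalings, filters, tools and designs tried, and 3 (Naca, Btf3 and Spcs3) in each of the 4 fits without 1 library. For the receptor, Srpr, the subunit that binds SRP54, had 192 and 192 normalized CPM in siNT and 165 and 167 in siCnot1. It fell by 0.21 on the log2 scale (SE 0.0572, edgeR adjusted p = 0.00718), a call that was lost when library totals replaced TMM (-0.10) and without any 1 library. Srprb, the subunit that anchors it in the membrane, had 54.9 and 62.0 in siNT and 52.7 and 57.1 in siCnot1. Its groups overlapped, and its log2 fold change of -0.09 (edgeR adjusted p = 0.447) was 0.02 under library totals. The 7SL RNA was near the floor in these poly(A)+ libraries, with 2, 3, 2 and 4 counts on Rn7s1 and 2, 0, 2 and 0 on Rn7s2, and was not tested.

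Both subunits of the nascent polypeptide-associated complex fell. The complex binds emerging chains at the ribosome and hinders the SRP from binding chains that lack a signal sequence. Naca had 667 and 626 normalized CPM in siNT and 450 and 463 in siCnot1, and fell by 0.50 on the log2 scale (SE 0.0548, edgeR adjusted p = 3.20e-07). Btf3 had 588 and 579 in siNT and 429 and 436 in siCnot1, and fell by 0.43 (SE 0.0531, edgeR adjusted p = 1.58e-06). The libraries of each gene lay far apart between groups and close within them. Among the 8 genes of the Sec61 channel and its partners, 4 rose and none fell, with a median log2 fold change of 0.20. Over all tested genes, 15% were higher and 14.7% lower. Sec63, which couples the channel to a lumenal chaperone, rose from 66.3 ± 0.623 (SD, n = 2) to 86.6 ± 7.39 normalized CPM. Its log2 fold change was 0.39 (edgeR adjusted p = 0.000303), and 0.29 without siCnot1 replicate 1. Sec62, its partner, rose by 0.28 (edgeR adjusted p = 0.00185), as did Sec61a2, an alternative channel subunit, by 0.29 (edgeR adjusted p = 0.00385). These latter calls were lost without the filter on low counts, and Sec61a2 was 0.19 without siCnot1 replicate 1. The fourth, Tram2, rose by 0.49 (edgeR adjusted p = 0.0204), a call lost without the filter and with DESeq2. The main channel subunit Sec61a1 had a log2 fold change of 0.12 and did not pass (edgeR adjusted p = 0.129), except under library totals at 0.22.

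**Figure D5:**
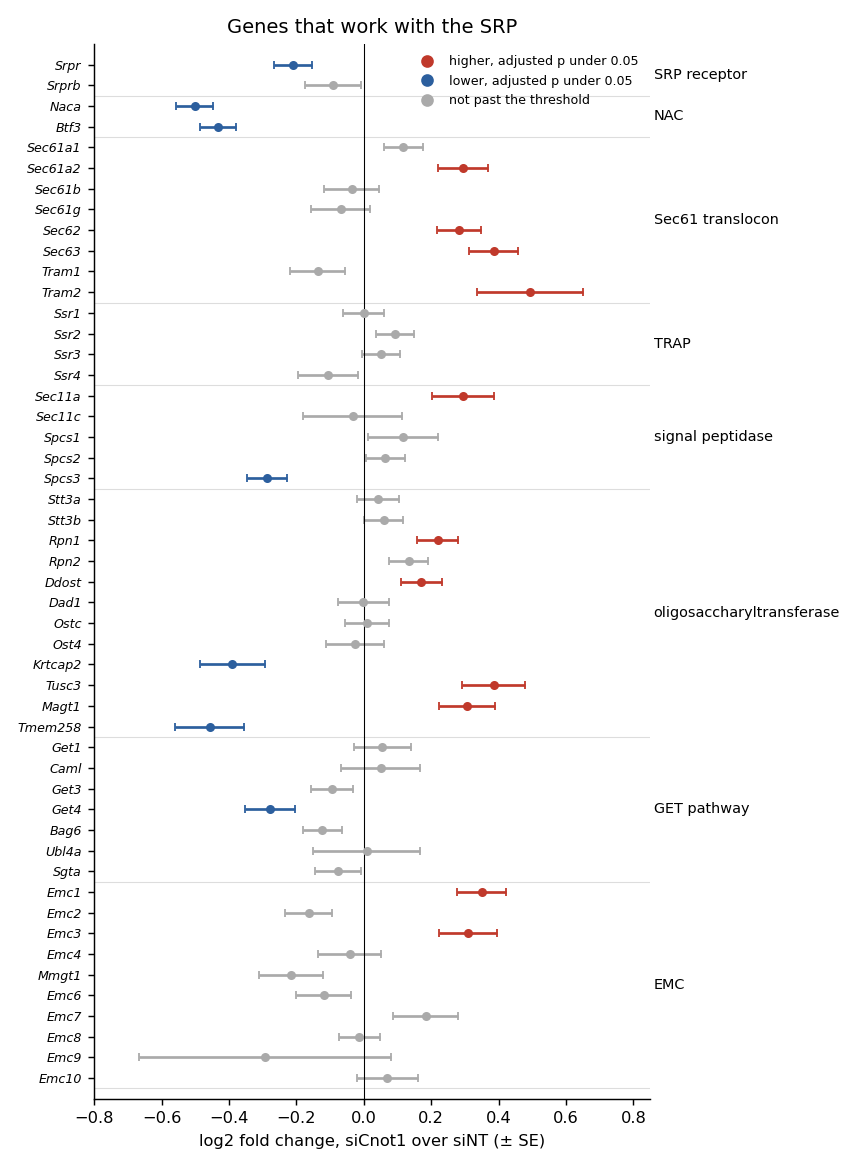
Log2 fold changes of siCnot1 over siNT (± SE) for the 50 tested genes that act with the SRP, ordered by complex, with genes past an edgeR adjusted p of 0.05 in red (higher) or blue (lower). Both genes of the NAC lie left of 0, at -0.50 and -0.43, and the 4 called genes of the Sec61 translocon lie right of it.

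The remaining complexes held calls in both directions or few calls. Of the 4 subunits of the translocon-associated complex TRAP none passed, with Ssr2 at 0.09, Ssr3 at 0.05 and Ssr4 at -0.11. Under library totals Ssr2 and Ssr3 passed, at 0.20 and 0.16, and Ssr4 was 0.0009. Among the 5 signal peptidase genes, Spcs3 fell by 0.29 (edgeR adjusted p = 0.000845, and by 0.18 under library totals) and Sec11a, a catalytic subunit, rose by 0.29 (edgeR adjusted p = 0.0185, lost without the filter on low counts, and 0.19 without siCnot1 replicate 1), while Spcs1 at 0.12 did not pass. Of 12 oligosaccharyltransferase genes, which attach N-glycans to entering chains, 4 rose and 2 fell. The small subunits Tmem258 and Krtcap2 fell by 0.46 and 0.39 (edgeR adjusted p = 0.00150 and 0.00354), and Tusc3, an oxidoreductase subunit, rose by 0.39 (edgeR adjusted p = 0.00290, lost without the filter). In the GET pathway, which inserts tail-anchored proteins, 1 of 7 genes passed: Get4 fell by 0.28 (edgeR adjusted p = 0.00571), a call lost with library totals (-0.17) and without the filter. Bag6 at -0.12 and Get3 at -0.09 did not pass, and Get3 was 0.01 under library totals. Of the 10 genes of the ER membrane complex EMC, Emc1 and Emc3 rose by 0.35 and 0.31 (edgeR adjusted p = 0.000717 and 0.00862, the latter lost without the filter), and Emc2 at -0.16 did not pass.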

How the data were processed

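RNA-seq libraries of E14 ESCs were grouped by the sample titles as siNT or siCnot1. The authors deposited raw counts per gene with the exon length of each gene, not normalized and not pooled. The submitters' processing notes list fastp 0.19.4, HISAT2 2.2.1, DESeq2 1.40.2 and mm10. The counting program and its settings for strand and for reads with several matches are not given in the sources used here. The listed positions differ from GRCm38 (2.24% of 48775 genes paired by symbol share a start) and were taken as those of GRCm39.

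Genes were filtered with filterByExpr (minimum count 10) and fitted with edgeR 4.0.16 (TMM, quasi-likelihood, condition as the only term, Benjamini-Hochberg over all 18144 genes tested) in R 4.3.3. SEs are the log2 fold change over the square root of F. The Srp54 sum replaced its 3 rows in a separate fit of all genes. The fits were tested on simulated data. Alternatives were DESeq2 size factors, upper-quartile scaling, library totals, no filter, at least 1 CPM in 2 libraries, DESeq2 1.42.0, limma-voom (limma 3.58.1), the replicate number as a block, and leaving out each library. Log2 values for the pattern search used a prior of 0.5. TPM used the deposited exon lengths. Transcripts came from GENCODE M21, matched by symbol. Wilson intervals were computed with Python 3.11.15 and scipy 1.17.1.

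Genes named are the 8 members, Cnot1, the receptor, 7SL and nascent-chain lists, up to 3 genes per other list by adjusted p, the tested Srp54 neighbours and the 3 nearest patterns. Tram2, Sec61a1, the genes with wide gaps between replicates and the untested neighbours were named after their values were seen. So were the primitive endoderm and fibroblast markers. The members and lists were chosen with earlier results of these data known. Same-numbered replicates did not deviate together (correlation -0.00565), so the numbers were not treated as pairs.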

Additional observations from a re-analysis of the deposited data

How the results depend on the processing

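The median log2 fold change of the 5 single-copy SRP genes was -0.11 and ranged from -0.13 to -0.10 without 1 library. It was -0.0009 under library totals, which moved the median of all genes to 0.12 and the split of calls from 2719 higher and 2668 lower to 3999 and 1563. The log2 fold change of the summed Srp54 copies ranged from -0.99 to -0.22 without 1 library, and that of Srp54b from -4.43 to 0.21, the latter without siNT replicate 2; Srp54b dropped out of the fit when at least 1 CPM in 2 libraries was required. Srp54b took 16.4% of the summed counts as a mean over siNT libraries (2.08% and 30.8% with either alone) and 41.8% of Srp54a and Srp54b together. The ratio of the highest to the lowest single-copy level was 2.60 with exon length. It was 3.76 when the same counts, which include reads outside the coding sequence, were divided by coding length. Under library totals the log2 fold changes of Srprb (0.015), Ssr4 (0.0009), Get3 (0.0134) and Ppp2r3c (0.0156) turned positive, and Ssr2 (0.20), Ssr3 (0.16) and 2700097O09Rik (0.32) passed. With the replicate block the median of the single-copy genes was -0.11, the Srp54 sum was -0.61, and 10 pathway genes were higher and 7 lower. Pathway genes numbered 11 higher and 7 lower; 18 were higher under library totals and 2 without the filter, and without 1 library 0 to 7 were higher and 3 to 6 lower. In those fits fewer libraries were used and the lone library was assumed to vary like the other group; all-gene calls were 743 to 1439 higher and 871 to 1463 lower. Shared 150-base stretches of the Srp54 copies rose to 72.06%, 98.36% and 89.5% at 100 bases, a length chosen after seeing the data, as was the sum without Srp54b.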
